A study of Mus musculus with 12 samples.

Results

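The genes described here encode the mechanical junctions of the intercalated disc, the structure that joins heart muscle cells end to end. They were Dsp, Pkp2, Dsg2, Dsc2 and Jup of the desmosome, Cdh2, Ctnna3 and Ctnnb1 of the adherens junction, and Tjp1 of the zonula occludens scaffold. A gene was included where the gene name of an array probe equalled one of these 9 symbols, which gave 13 of the 55681 probes on the array, and 12 of the 24593 probes that passed the background filter. All 9 genes kept at least 1 probe, so each of them was tested, among 18021 gene names that passed. None of the 9 changed past the threshold in either mutant, and the 95% interval of every change lay inside a 2-fold difference.

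RNA was from the left ventricular wall with the apex, without the interventricular septum, of mice 6 months old, with 4 hearts in each of 3 groups, hybridised 1 heart to 1 one-colour array. Both mutant groups carried a floxed Nkx2-5 allele (Nkx2-5-ΔNeo) and a tamoxifen-dependent Cre, Cx40-creERT2, inserted at the locus of connexin 40 (gene Gja5), which is active in embryonic trabecular myocardium, arterial endothelium and atria. Nkx2-5ΔTrbE10 mice (TrbE10 here, Δtrab in the labels) were exposed to tamoxifen through the mother at E10.5 and E11.5, while trabeculae form, and Nkx2-5ΔTrbE14 mice (TrbE14, Δcomp in the labels) at E13.5 and E14.5, while they compact. Controls were not injected per the labels, and the methods describe control littermates with the same floxed alleles and no Cre, so that Cre, the connexin 40 insertion and, by the labels, tamoxifen differed together between control and mutant. Litters exposed to tamoxifen were delivered by caesarean section and fostered, and because Cre acts in some cell types of the wall and not in others, the tissue holds deleted and undeleted cells. The TrbE10 arrays had a slide to themselves, and TrbE14 and control shared the other, so slide and TrbE10 cannot be told apart, whereas TrbE14 and control were compared within 1 slide.

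Desmosomes and adherens junctions carry the force of contraction from cell to cell. In a desmosome the cadherins desmoglein-2 (Dsg2) and desmocollin-2 (Dsc2) bind across the gap, plakoglobin (Jup) and plakophilin-2 (Pkp2) hold their tails, and desmoplakin (Dsp) anchors the plaque to desmin filaments. In the adherens junction N-cadherin (Cdh2) is coupled to actin through β-catenin (Ctnnb1) and α-catenins such as αT-catenin (Ctnna3), and in the heart both kinds of junction merge into a mixed structure, the area composita. Inherited faults of the desmosomal genes cause arrhythmogenic cardiomyopathy in people, and zonula occludens-1 (Tjp1) binds the tail of connexin 43 at the rim of gap junctions.

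The levels are the signal of 60-base oligonucleotide probes, so each gene was read through 1 to 3 short stretches of its transcript. The sequences of 3 of these probes, all within coding sequence, are given because they define what was read for plakoglobin, for αT-catenin and by the second desmoplakin probe. The Dsp probe that stands for the gene below lies at chr13:38290121-38290180 and its letters are not shown. The Dsp probe shown and the Ctnna3 probe span an interval of the genome longer than 60 bases, so that each crosses a junction between exons. They are written 5′ to 3′ in lower case, on the strand of the transcript, with mm9 intervals from the array files.

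Dsp second probe, chr13:38285480-38286579: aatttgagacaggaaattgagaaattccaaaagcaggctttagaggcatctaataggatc
Jup probe, chr11:100238038-100238097, minus strand: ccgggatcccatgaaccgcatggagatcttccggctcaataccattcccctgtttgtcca
Ctnna3 probe, chr10:64138650-64297370: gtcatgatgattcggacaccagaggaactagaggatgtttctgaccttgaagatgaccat

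The Jup probe has 55.0% G and C, against 36.7% in this Dsp probe and 45.0% in the Ctnna3 probe. Probes with different sequences bind with different strength, so the level of one gene is not set against that of another below, and each gene is compared only with itself across hearts. Signals are log2 values after quantile normalisation, in which a step of 1 is a 2-fold difference. Where a gene had several probes past the filter, the one of highest mean signal stands for it. The SD is over the 4 hearts of a group unless stated otherwise.

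Nkx2-5, the cardiac transcription factor that was deleted, checks the labels of mutant against control hearts. Its log2 signal was 11.95, 12.23, 11.93 and 11.89 in the control hearts, 11.27, 11.67, 11.21 and 11.22 in TrbE10, and 11.12, 11.57, 11.32 and 11.63 in TrbE14. Every mutant heart lay below every control heart. The mutant groups overlapped with each other, with a change of -0.06 for TrbE10 over TrbE14 (adjusted p = 0.977 by limma). The log2 change was -0.66 ± 0.14 (SE, n = 4 and 4) in TrbE10 with an adjusted p of 0.0459, and -0.59 with an adjusted p of 0.106 in TrbE14 (limma, Benjamini-Hochberg over all 24593 probes). The TrbE10 call was not held in 12 of 21 other settings, 10 of which each left out 1 heart (any control heart, TrbE10 heart 1, 3 or 4, or TrbE14 heart 2, 3 or 4), with an adjusted p between 0.0158 and 0.132 and a change between -0.76 and -0.58. In TrbE14 versus control Nkx2-5 was called in 0 of 21 other settings, with a lowest adjusted p of 0.0663 by limma. Significance analysis of microarrays (SAM, at a false discovery rate of 5%), which is outside these 21, did not call Nkx2-5 in either mutant. Whether the probe lies inside the deleted stretch is not given in the sources used here. In whole tissue, fewer cells that hold a transcript and less of it in each cell cannot be told apart.

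**Figure D1:**
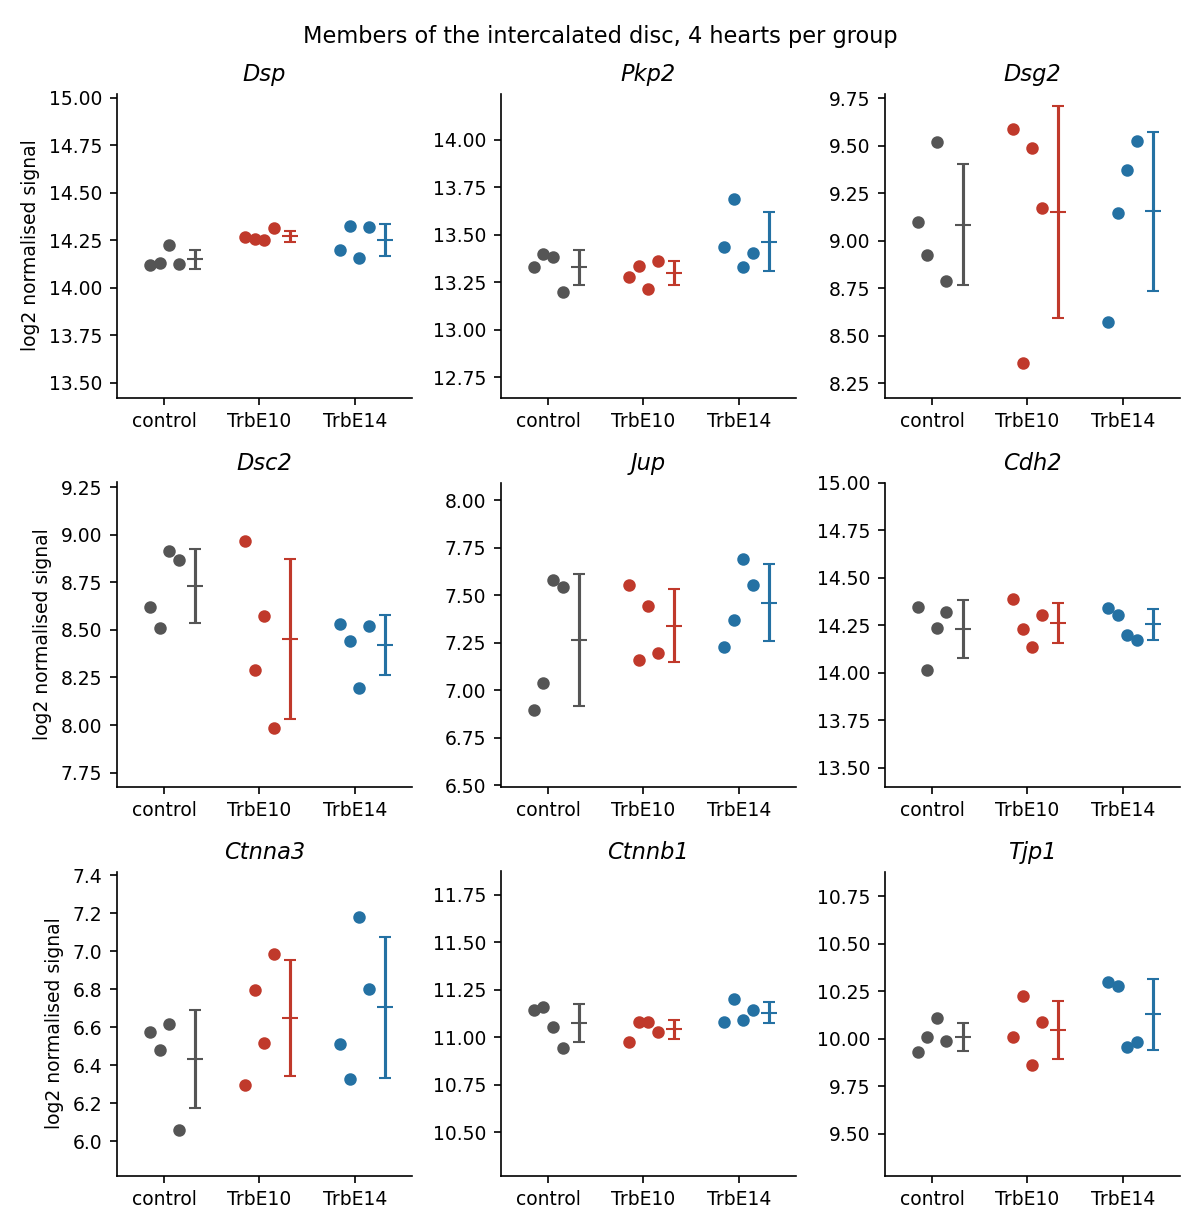
Log2 normalised signal of the 9 junction genes in each heart, with 4 points per group (control, TrbE10, TrbE14) and, to the right of the points, the mean with 1 SD. Each panel covers 1.6 log2 units centred on its gene. Hearts of the 3 groups overlap in every panel except Dsp, where the 4 TrbE10 hearts (14.25 to 14.31) lie above the 4 control hearts (14.12 to 14.23).

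Dsp, the plaque protein that holds desmin, had an SD within groups of 0.06, and 5.08% of the probes of the same decile of signal had a smaller one. Its log2 signal was 14.12, 14.13, 14.23 and 14.12 in control, 14.27, 14.25, 14.25 and 14.31 in TrbE10, and 14.20, 14.33, 14.16 and 14.32 in TrbE14. All TrbE10 hearts were above all control hearts, by as little as the distance from 14.23 to 14.25, and TrbE14 hearts overlapped with control on their shared slide. On the log2 scale the change was 0.12 (SE 0.07, 95% interval -0.03 to 0.27, adjusted p = 0.414 by limma) in TrbE10, an 8.82% difference, and 0.10 (-0.05 to 0.25, adjusted p = 0.531) in TrbE14. Of all probes tested, 10.1% had hearts of TrbE10 and control that did not overlap, so 1 gene of 9 is close to that share. In TrbE14 versus control 0 of the 9 genes had hearts that did not overlap, against 9.43% of all probes, and between the mutants 0, against 3.15%. An exact two-sided permutation test of Dsp gave p = 0.0286, the smallest that 4 against 4 hearts allow, and 0.463 after Benjamini-Hochberg adjustment over the 27 tests of 9 genes in 3 comparisons. The Dsp probe was printed 10 times on each array, and the SD of those spots within an array ran from 0.02 to 0.05. The value of a heart is the mean of those spots. That mean had a median SE of 0.012, against an SD of 0.06 between hearts of a group. A second Dsp probe, the one shown above, had a log2 change of 0.12 in TrbE10 (adjusted p = 0.748) and 0.11 in TrbE14 (adjusted p = 0.761), with hearts of all 3 groups overlapping.

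Pkp2, the armadillo protein of the desmosomal plaque, had a log2 signal of 13.33, 13.40, 13.38 and 13.20 in control, 13.28, 13.33, 13.22 and 13.36 in TrbE10, and 13.43, 13.69, 13.33 and 13.40 in TrbE14. Hearts 1 and 2 of TrbE14 were above every control heart, heart 4 was level with the highest control, and the groups overlapped. The log2 change was -0.03 (adjusted p = 0.901) in TrbE10 and 0.14 (95% interval -0.06 to 0.33, adjusted p = 0.52) in TrbE14. Between the mutants Pkp2 showed the widest gap of the 9 genes, -0.17 for TrbE10 over TrbE14 (-0.37 to 0.03), with an adjusted p of 0.916 by limma.

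On their brightest probes, the desmosomal cadherins Dsg2 and Dsc2 varied more between hearts than Dsp and Pkp2. The probes of Dsp and Pkp2 had higher signals, at percentiles 96.2 and 93.7 of all probes, against 62.3 for Dsg2 and 55.8 for Dsc2. The second Dsp probe had an SD within groups of 0.22. The SD within groups was 0.44 for Dsg2 and 0.28 for Dsc2, beside 0.31 for Ctnna3 and 0.26 for Jup. Dsg2 had a log2 signal of 9.10, 8.93, 9.52 and 8.79 in control, 9.59, 8.36, 9.49 and 9.17 in TrbE10, and 8.57, 9.15, 9.37 and 9.52 in TrbE14. Its hearts ranged over 0.73 log2 in control, 1.23 in TrbE10 and 0.95 in TrbE14, each mutant group held a heart below all controls, and its highest heart was above (TrbE10) or level with (TrbE14) the highest control. The fitted log2 change was 0.07 in each mutant, with a 95% interval from -0.56 to 0.70, the widest of the 9 genes. The SD within groups, 0.44, was higher than in 93.5% of the probes of the same decile of signal. A second Dsg2 probe changed by 0.06 in TrbE10 and 0.03 in TrbE14. Its SD within groups was 0.23, higher than in 13.3% of the probes of its decile of signal. On this second probe hearts ranged over 0.53 log2 in control, 0.13 in TrbE10 and 0.72 in TrbE14. The wide spread of the TrbE10 hearts was thus seen on the brightest probe only. The third Dsg2 probe did not rise above background on any array.

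Dsc2, the partner cadherin, had the largest absolute change of the 9 genes in both mutants. It was the only one of the 9 with a higher mean in control than in either mutant. Its log2 signal was 8.62, 8.51, 8.92 and 8.87 in control, 8.97, 8.29, 8.57 and 7.98 in TrbE10, and 8.53, 8.44, 8.19 and 8.52 in TrbE14. A pair of hearts in each mutant lay below all controls and 1 TrbE10 heart lay above them. The log2 change was -0.28 (95% interval -0.69 to 0.14, adjusted p = 0.5) in TrbE10 and -0.31 (-0.72 to 0.11, adjusted p = 0.489) in TrbE14, or -17.5% and -19.2%. The exact permutation p was 0.343 and 0.0857. In absolute size these changes were above 71.5% and 75.6% of all probes tested. They stayed negative in 21 other settings, between -0.45 and -0.12 in TrbE10 and between -0.38 and -0.14 in TrbE14.

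Jup, which serves both junctions, had a log2 signal of 6.90, 7.04, 7.58 and 7.54 in control, 7.56, 7.16, 7.45 and 7.20 in TrbE10, and 7.23, 7.37, 7.69 and 7.55 in TrbE14. The control hearts fell into a lower and a higher pair that enclosed all TrbE10 hearts. In log2 terms the change was 0.08 (95% interval -0.31 to 0.46, adjusted p = 0.869) in TrbE10 and 0.20 (-0.18 to 0.58, adjusted p = 0.625) in TrbE14.

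Among the adherens junction genes, Cdh2 was closest to equal in the 3 groups. Its log2 signal was 14.35, 14.02, 14.24 and 14.32 in control, 14.39, 14.23, 14.14 and 14.30 in TrbE10, and 14.34, 14.31, 14.20 and 14.17 in TrbE14. The change was 0.03 in each mutant, with 95% intervals of -0.17 to 0.24 and -0.18 to 0.23, and adjusted p-values of 0.893 and 0.919. The second Cdh2 probe changed by 0.003 in TrbE10 and by -0.02 in TrbE14, and so had the other sign in TrbE14, with an interval from -0.23 to 0.20.

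Ctnna3, the αT-catenin that binds plakophilin-2 as well as actin, had the largest positive change of the 9 genes in each mutant. Its log2 signal was 6.58, 6.48, 6.62 and 6.06 in control, 6.30, 6.79, 6.52 and 6.99 in TrbE10, and 6.51, 6.33, 7.18 and 6.80 in TrbE14. A pair of hearts in each mutant was above all controls, and the others overlapped with them. The log2 change was 0.21 (95% interval -0.24 to 0.67, adjusted p = 0.657) in TrbE10 and 0.27 (-0.19 to 0.73, adjusted p = 0.57) in TrbE14, or 16.0% and 20.6%, with intervals that reached 59.2% and 65.4%. In 21 other settings it stayed between 0.09 and 0.33 in TrbE10 and between 0.11 and 0.40 in TrbE14.

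Ctnnb1, which is both a junction protein and the transcriptional arm of Wnt signalling, had an SD within groups of 0.07, and 6.51% of the probes of the same decile of signal had a smaller one. Its log2 signal was 11.14, 11.16, 11.05 and 10.94 in control, 10.98, 11.08, 11.08 and 11.03 in TrbE10, and 11.08, 11.20, 11.09 and 11.14 in TrbE14. The change was -0.03 (95% interval -0.20 to 0.13, adjusted p = 0.863) in TrbE10 and 0.06 (-0.11 to 0.22, adjusted p = 0.754) in TrbE14. The TrbE10 hearts at 10.98 and 11.03 lay below all TrbE14 hearts and the other pair was level with the lowest, and the change between the mutants was -0.09 (exact permutation p = 0.0571, adjusted p = 0.946 by limma).

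Tjp1, the zonula occludens scaffold, had a log2 signal of 9.93, 10.01, 10.11 and 9.99 in control, 10.01, 10.22, 9.86 and 10.09 in TrbE10, and 10.30, 10.28, 9.95 and 9.98 in TrbE14. A pair of TrbE14 hearts stood above all controls and the other pair lay among them. On the log2 scale the change was 0.04 (95% interval -0.20 to 0.27, adjusted p = 0.903) in TrbE10 and 0.12 (-0.12 to 0.36, adjusted p = 0.639) in TrbE14.

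**Figure D2:**
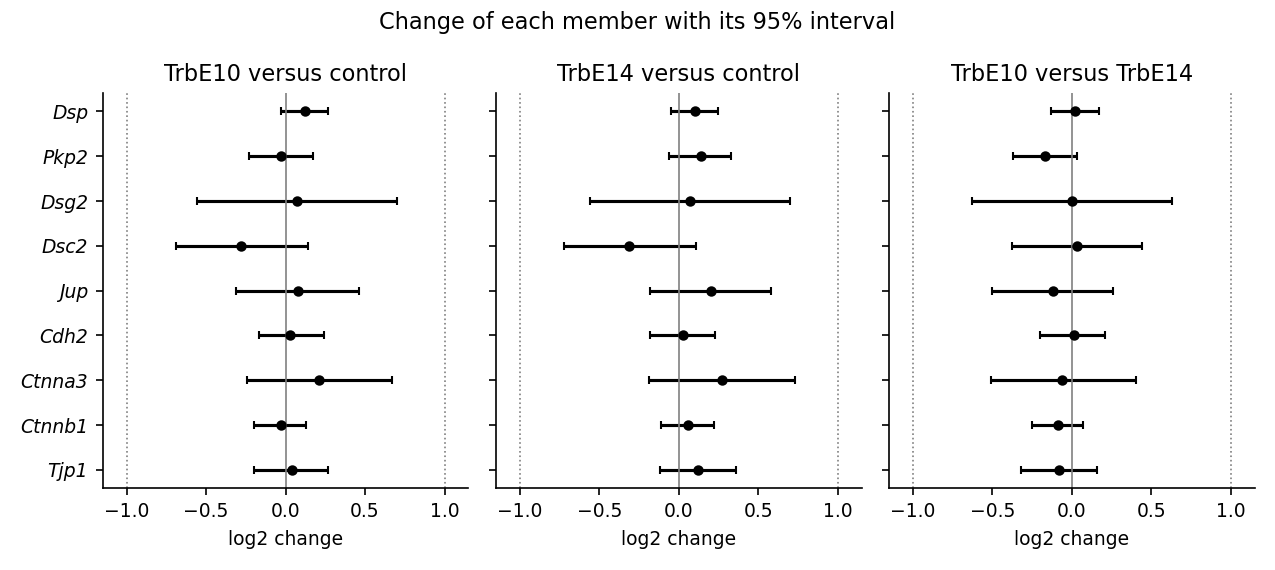
Log2 change of each of the 9 junction genes in the 3 comparisons, as a point with its 95% interval from the fit across all probes. The dotted lines mark a 2-fold difference either way. Every interval holds 0 and none reaches a 2-fold difference.

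Counted together, 0 of the 9 genes were called in TrbE10 versus control at an adjusted p under 0.05 (limma), where 1.69% of all probes were called, and 0 had an unadjusted p under 0.05, where 16.4% of all probes did. In TrbE14 versus control the counts were again 0 and 0, against 0.602% and 13.6% of all probes. Between the mutants they were 0 and 0, against 0% and 5.76%. A test over the 3 groups called 0 of the 9, against 1.08% of all probes, and SAM, the test that the methods name, called 0 in any comparison. With 9 genes, a share of 1.69% would be less than 1 gene, so these adjusted counts are near the background and are not a result about the genes.

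The median change of the 9 genes was 0.04 in TrbE10, from -0.28 to 0.21, and 0.10 in TrbE14, from -0.31 to 0.27, where the median of all probes was -0.02 and -0.03. The median absolute change was 0.07 in TrbE10 and 0.12 in TrbE14, against 0.16 and 0.15 over all probes. This comparison was not matched for signal level. Each of the 9 genes was read by its brightest probe, and the median SE was 0.11 for them and 0.15 for all probes. The mean was lowest in control for 6 genes (Dsp, Dsg2, Jup, Cdh2, Ctnna3 and Tjp1), between the mutants for Pkp2 and Ctnnb1, and highest in control for Dsc2. No neighbouring groups in these orders differed beyond the spread of their hearts by limma. The 95% interval reached to either side by 0.15 (Dsp) to 0.63 (Dsg2) log2, so a 2-fold change lay outside the interval of all 9 genes, and a change of 0.5 log2 lay outside that of 6 genes in TrbE10 and 5 in TrbE14. The intervals of the other genes (Dsg2, Dsc2 and Ctnna3, and in TrbE14 also Jup) reached past 0.5 in size. The TrbE10 and TrbE14 values share their control hearts.

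The groups also differed in sex, with Y-linked transcripts detected in 1 control heart, in 2 hearts of TrbE10 and in 3 of TrbE14. With sex as a covariate 0 of the 9 genes were called.

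The 9 genes did not move as 1 block from heart to heart. Of the 36 pairs, 21 had a positive Pearson correlation over the 12 hearts and the median r was 0.035, and 0 pairs passed Benjamini-Hochberg adjustment over the 36 (permutation tests, two-sided, 100000 resamples). The highest was Pkp2 with Ctnnb1 (r = 0.702, permutation p = 0.00955, adjusted 0.115; rho = 0.573, permutation p = 0.0558, adjusted 0.502). Without the 2 hearts farthest from the median of Pkp2 it was 0.349, and after removal of the group means it was 0.587. Leaving out the extreme hearts narrows the range of Pkp2, which can itself lower r, so the lower value does not show that the relation rests on them. Pkp2 with Tjp1 gave r = 0.683 (permutation p = 0.00858, adjusted 0.115) and rho = 0.671 (p = 0.0192, adjusted 0.399), and kept 0.605 without the 2 farthest hearts. Dsc2 with Ctnna3 was the lowest, with r = -0.746 (permutation p = 0.00568, adjusted 0.115) and rho = -0.594 (p = 0.0449, adjusted 0.502), and -0.658 without the 2 farthest. Within the slide of the control and TrbE14 hearts these r were 0.754, 0.719 and -0.632 over 8 hearts, and the other slide holds 4 hearts, too few for a value.

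**Figure D3:**
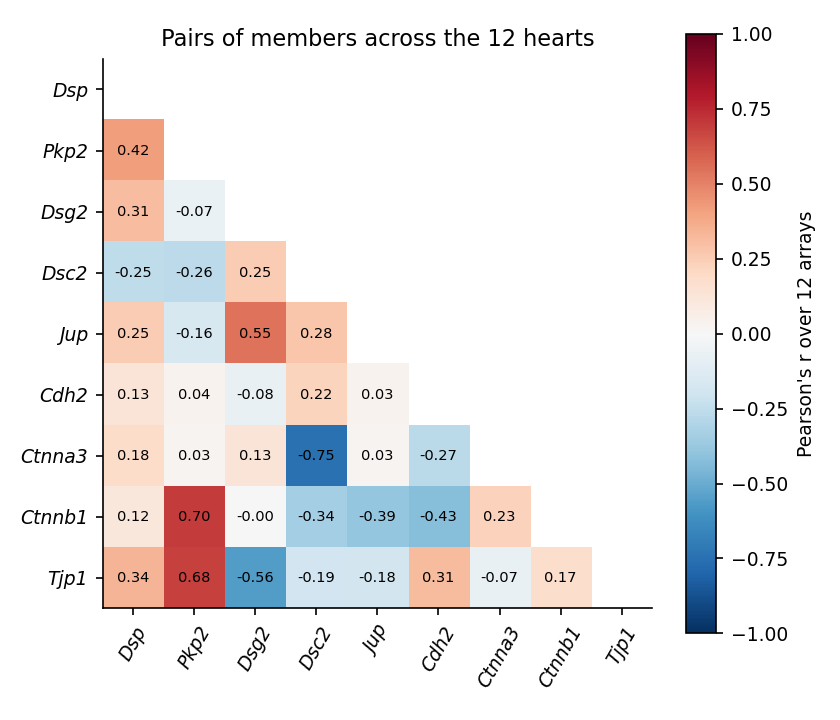
Pearson's r of each pair of the 9 junction genes over the 12 hearts, with red for positive and blue for negative values. Pkp2 with Ctnnb1 (0.702) and Dsc2 with Ctnna3 (-0.746) are the extremes, and 21 of the 36 pairs are positive.

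A profile made of the mean of the 9 scaled signals ran from -0.55 in control heart 4 to 0.72 in TrbE14 heart 2. The 5 genes outside the set with the profile most like it over the 12 arrays were Zfp579 (r = 0.833), C230096C10Rik (0.827), Eif4ebp3 (0.826), Ccdc77 (0.798) and Ghdc (0.796), given as a description.

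Other genes of these junctions were examined from lists of 62 genes, of which 45 were measured and 12 stayed at background on all 12 arrays. Of these 45, limma and SAM called 0 in TrbE10, 0 in TrbE14 and 0 between the mutants. An unadjusted p under 0.05 by limma was found for 12 of the 45 in TrbE10, 6 in TrbE14 and 3 between the mutants, against 16.4%, 13.6% and 5.76% of all probes. By count, 20 were higher and 25 lower in TrbE10, with a median change of -0.02, and 26 higher and 19 lower in TrbE14, with a median of 0.06.

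The desmosomal cadherins lie in 1 cluster of 9 genes on chromosome 18, and 3 of them passed the filter: Dsc2, Dsg2 and Dsg1c. Dsg1c, a desmoglein-1 gene, had a log2 signal of 4.26, 4.76, 3.64 and 4.34 in control, 5.97, 5.10, 5.50 and 4.93 in TrbE10, and 4.66, 4.27, 5.24 and 5.50 in TrbE14. The 4 TrbE10 hearts were above all controls, and the TrbE14 hearts overlapped with them. The log2 change was 1.12 (adjusted p = 0.109) in TrbE10 and 0.67 (adjusted p = 0.385) in TrbE14, but 0.35 and 0.14 with normexp background correction. The probe was well above background on 1 of 4 control arrays, 4 of 4 TrbE10 arrays and 2 of 4 TrbE14 arrays, so it passed the filter only through the group where it was high, and its change is given as a description. The desmosomal genes Dsg1a, Dsg1b, Dsg3, Dsg4, Dsc1, Dsc3 and Pkp1, most of them known from skin, did not pass. Pkp4, Pkp3, Ppl, Evpl and Perp changed by -0.16 to 0.28 in TrbE10 and -0.19 to 0.39 in TrbE14.

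Of the adherens junction genes outside the 9, 6 of 7 had a lower mean in each mutant, with median changes of -0.20 in TrbE10 and -0.06 in TrbE14, and 0 of 7 were called. The vinculin gene Vcl, which links catenins to actin, changed by -0.20 and -0.03, and the αE-catenin gene Ctnna1 by -0.20 (adjusted p = 0.204) and -0.06.

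Gap junction genes, channels and their anchors had median changes of -0.20 and -0.21, and 0 of 8 were called. Cxadr, the coxsackie and adenovirus receptor of the disc, had a log2 signal of 10.63, 10.29, 10.44 and 10.41 in control, 9.90, 10.36, 9.48 and 9.81 in TrbE10, and 10.07, 10.35, 9.74 and 9.77 in TrbE14. In each mutant, 3 hearts lay below all controls. The fitted log2 change was -0.55 (adjusted p = 0.173) in TrbE10 and -0.46 (adjusted p = 0.323) in TrbE14. Gja5, whose locus carries Cre in the mutants, had values of 7.57, 7.09, 8.83 and 7.78 in control, 7.17, 7.43, 7.31 and 6.77 in TrbE10, and 8.16, 7.34, 6.83 and 7.05 in TrbE14. Its changes were -0.64 (adjusted p = 0.41) and -0.47 (adjusted p = 0.572), or -0.31 and -0.13 without control heart 3. A second Gja5 probe changed by -0.60 and -0.54 (adjusted p = 0.359 and 0.455 by limma). That probe was well above background on 3 of 4 control arrays and on 0 mutant arrays. It passed the filter only through controls, where it was higher, so its changes are a description. Gja1, the connexin 43 of working myocardium, changed by -0.16 and -0.27 (adjusted p = 0.803 and 0.661).

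Of 13 actin and scaffold genes of the disc 0 were called. In TrbE10, 8 had a higher and 5 a lower mean, with a median change of 0.10 (-0.36 to 0.60), and in TrbE14 10 were higher and 3 lower, with a median of 0.23. Xirp2, which encodes an actin-binding Xin repeat protein, had a log2 signal of 10.55, 10.51, 10.62 and 10.59 in control, 11.28, 10.91, 11.52 and 10.95 in TrbE10, and 11.12, 10.74, 10.80 and 10.91 in TrbE14. Every mutant heart was above every control heart. The log2 change was 0.60 (adjusted p = 0.0545) in TrbE10 and 0.33 (adjusted p = 0.335) in TrbE14. Xirp2 passed in TrbE10 in 6 of 21 other settings, with an adjusted p between 0.011 and 0.128. Enah, a regulator of actin filament growth, was 10.62, 10.85, 10.25 and 10.19 in control, 10.96, 10.77, 11.38 and 11.11 in TrbE10, and 10.93, 10.82, 10.73 and 10.60 in TrbE14, with changes of 0.58 (adjusted p = 0.115) and 0.29 (adjusted p = 0.459). Xirp1, the related Xin gene, changed by -0.12 and 0.01. Des, the desmin to which desmoplakin binds, changed by 0.31 (adjusted p = 0.34) and 0.25 (adjusted p = 0.494). On the lower side in TrbE10 were Lmo7, at -0.36 (adjusted p = 0.32), and the α-actinin gene Actn2, at -0.19 (adjusted p = 0.263), which changed by -0.07 and -0.0014 in TrbE14. Ldb3, a Z-disc gene, changed by -0.10 (adjusted p = 0.623) in TrbE10 and 0.25 (adjusted p = 0.272) in TrbE14. Hearts of TrbE10 and control did not overlap for 4 of the 13 (Xirp2, Actn2, Ldb3 and Tmem43), against 10.1% of all probes. In TrbE14 versus control, within 1 slide, hearts did not overlap for 3 of the 13, against 9.43%. Over all 45 junction genes outside the 9, the counts were 7 in TrbE10 and 6 in TrbE14.

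For β-catenin, the 6 genes of its turnover (Apc, Axin1, Gsk3a, Gsk3b, Csnk1a1 and Btrc) had median changes of 0.06 and 0.08 with 0 called. Among 11 targets and feedback genes of Wnt signalling, 5 were measured and 0 were called, while Axin2, Lef1, Tcf7, Sp5, Lgr5 and Rnf43 did not pass the filter. Apcdd1, a Wnt inhibitor, was 5.01, 5.86, 4.89 and 5.31 in control, 5.69, 5.62, 5.84 and 6.20 in TrbE10, and 5.88, 5.90, 5.95 and 5.64 in TrbE14, with changes of 0.57 (adjusted p = 0.187) and 0.58 (adjusted p = 0.257), or 0.20 and 0.26 with normexp. Its probe was well above background on 2 of 4 control arrays and on 4 of 4 in each mutant, so it passed only through the mutants, where it was higher, and its changes are a description. Znrf3, which removes Wnt receptors, was 6.99, 6.81, 6.74 and 6.51 in control, 6.43, 6.72, 6.33 and 5.61 in TrbE10, and 6.50, 6.51, 6.40 and 6.04 in TrbE14. Its changes were -0.49 (adjusted p = 0.285) and -0.40 (adjusted p = 0.428), or -0.27 and -0.14 with normexp.

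**Figure D4:**
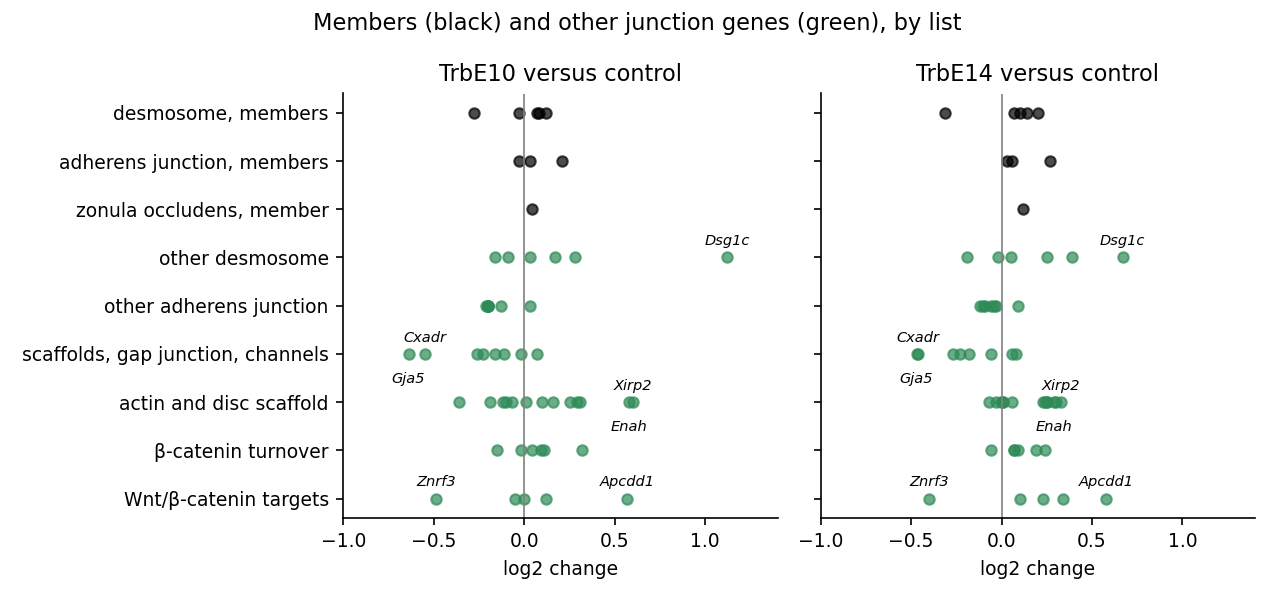
Log2 change of the 9 junction genes (black) and of 45 further junction genes (green), by list, in TrbE10 versus control on the left and TrbE14 versus control on the right. Each point is 1 gene and no gene passed an adjusted p under 0.05. Dsg1c at 1.12, whose probe was well above background on 1 of 4 control arrays, and Gja5 at -0.64 in TrbE10 mark the ends, and the 9 genes lie between -0.31 and 0.27.

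Cell makeup bears on whole-tissue values. Markers of cardiomyocytes (11 of 11 measured, 0 called) had median changes of -0.04 and 0.01, and their mean log2 signal was 16.2 to 16.3 in control, 16.2 in TrbE10 and 16.2 to 16.3 in TrbE14. Fibroblast markers (7 of 7 measured) had medians of 0.46 and 0.43 with 1 called higher in each mutant, macrophage markers (7 of 7) medians of 0.61 and 0.26 with 3 and 1 called higher, and epithelial and mesothelial markers (5 of 8) medians of 1.22 and 0.93 with 1 called higher in each. The mean log2 signal of the macrophage list was 9.07 to 9.23 in control, 9.51 to 9.96 in TrbE10 and 9.47 to 9.69 in TrbE14, and that of the fibroblast list 11.4 to 11.7, 11.9 to 12.2 and 11.6 to 12.1. The mean of the epithelial and mesothelial list was 5.75 to 6.89, 6.68 to 8.41 and 7.04 to 8.40, with Epcam, Upk3b and Upk1b not past the filter. The gene called there, Krt19 (named after its values were seen), was well above background on 1 of 4 control arrays and Krt8 on 0 of 4, so both passed only through mutant hearts, and this list's call and medians rest in part on control signals at background. Endothelial markers (7 of 7), from cells that also use Tjp1 and Ctnnb1, had medians of 0.14 and 0.16 with 0 called. Smooth muscle (4 of 4) had medians of 0.02 and 0.75, erythroid (3 of 3) 0.33 and 0.41, conduction (2 of 5, Cntn2, Hcn4 and Kcne1 not past the filter) 0.21 and 0.24, all with 0 called, and atrial markers (4 of 4) 0.99 and 0.87 with 1 called higher in TrbE10. Adipocyte markers (3 of 4, Lep not past the filter) had medians of -1.35 and -0.41 with 0 called. The part of these lists in the values of the 9 genes was not tested.

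Since Nkx2-5 binds DNA, the letters around the start sites were read from RefSeq (GRCm38.p6, 250 bases before to 50 after each start). Windows were found for 5 of the 9 genes (Ctnna3, Ctnnb1, Dsp, Jup and Tjp1), 8 windows in all. The Nkx2-5 motif TNAAGTG, on either strand, was in 0 of the 8 and in 11.54% of all 32851 windows. GATA sites (AGATAA) were in 0 of 8 against 11.2%, MEF2 sites in 0 against 3.69%, TCF/LEF sites (CTTTGAT) in 0 against 3.73%, and TEAD sites (GGAATG) in 1 against 14.7%. With 1 match in all, no motifs overlapped, and a missing match says only that these letters are not in the window. The 250 bases before the start of Dsp are shown, as the one gene of the 9 whose TrbE10 and control hearts did not overlap. Those before the Ctnna3 start that holds the TEAD letters (in capitals) are also shown. Both are written 5′ to 3′ on the plus strand.

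Dsp, chr13:38151044-38151293: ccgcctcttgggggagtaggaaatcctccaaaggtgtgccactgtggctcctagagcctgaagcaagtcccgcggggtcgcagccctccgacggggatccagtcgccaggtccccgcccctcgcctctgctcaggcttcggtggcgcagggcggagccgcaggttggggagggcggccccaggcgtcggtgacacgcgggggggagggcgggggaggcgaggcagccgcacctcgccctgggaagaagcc
Ctnna3, chr10:63457261-63457510: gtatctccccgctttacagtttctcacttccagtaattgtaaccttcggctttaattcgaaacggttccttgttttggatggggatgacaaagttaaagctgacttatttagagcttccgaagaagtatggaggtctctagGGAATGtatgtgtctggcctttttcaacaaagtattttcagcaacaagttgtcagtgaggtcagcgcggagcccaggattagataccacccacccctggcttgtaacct

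The Dsp window was 73.0% G and C with 27 CpG dinucleotides in 300 bases, and this Ctnna3 window 46.0% with 7.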

How the data were processed

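Each of 12 hearts was read on 1 one-colour Agilent mouse array. The deposited scanner files hold intensity values made by the authors with Agilent Feature Extraction 10.5.1.1 (background-subtracted processed signal), with probes placed on mm9. A deposited table holds log2 values that the authors had quantile-normalized, and it was used only as an alternative. Here log2 processed signals were quantile-normalized over spots after removal of control spots and of 93 to 131 outlier spots per array, and spots of a probe were averaged. No spot was saturated. Probes well above background on at least 3 of 4 arrays of a group (75%) were kept. The methods give a filter at 75% without saying over which arrays, so the filters may differ. On each array 22888 to 26155 probes were well above background. Precision is limited by the 4 arrays per group. limma 3.58.1 in R 4.3.3 fitted 1 mean per group over all 12 arrays (9 residual degrees of freedom), with Benjamini-Hochberg adjustment over 24593 probes and calls at an adjusted p under 0.05. Single genes were also tested by exact permutation (70 label orders), and the fit was tested on simulated data with 200 changed probes. There it called 67% of the 2-fold and 94% of the 4-fold changes, and 95% of the intervals held the true value. Replicates are separate mice per the labels.

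The 9 genes and all lists were chosen with earlier results of these data known. The text names the 9 genes, every called junction gene and the 5 largest changes per mutant outside them, the 5 genes of most similar profile, Nkx2-5, and marker lists as counts; other junction genes are named for their role, with their values known, and 1 is counted in its list but not reported singly here. A gene was represented by its filtered probe of highest mean signal. Alternatives were 75th percentile scaling, normexp correction, other filters, the authors' table, 2 groups only, the replicate block, sex, the mean over probes, SAM and leaving out each array. Correlations and motifs used Python 3.11.15 with NumPy 2.4.6 and SciPy 1.17.1, and figures matplotlib 3.10.9.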

Additional observations from a re-analysis of the deposited data

Results flagged for a closer look

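In each group of 4 hearts, the gap between the highest or lowest heart and its nearest neighbour was set against the whole range of the group (Dixon's ratio, at its 95% critical value) for the 9 junction genes, the 7 named junction genes outside them and Nkx2-5. Of 51 groups tested 2 passed, where chance gives about 1 in 20. Control heart 3 was high for Dsp at 14.23, against 14.12 to 14.13 in the other controls. TrbE10 heart 2 was high for Nkx2-5 at 11.67, against 11.21 to 11.27 in the other TrbE10 hearts.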

How the results depend on the processing

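The 9 junction genes were called 0 times in the 21 refits of limma and 0 times by SAM. Of 567 recomputed changes 565 lay within 1 standard error of the values reported, and the other 2, both under 75th percentile scaling, were Pkp2 in TrbE10 (-0.13) and Dsp in TrbE14 (0.03). In 33 of the 567 the sign turned, and 16 of the 27 changes kept their sign throughout. Of the 45 other junction genes, 1 (Xirp2, TrbE10 versus control) was called under 75th percentile scaling (0.54, adjusted p = 0.0489), normexp (0.56, 0.0437), the authors' values (0.60, 0.0408), sex as a covariate (0.67, 0.011), the mean over probes (0.60, 0.0455) and without TrbE10 heart 2 (0.69, 0.0283), and over the 3 groups 1 was called under normexp and 1 with sex. Leaving out 1 heart gave 0 to 1 junction genes in TrbE10 versus control.

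The counts over all probes moved more. For TrbE10 versus control the count of 416 became 197 with no filter and 263 with the 2 groups only, and 159 to 709 with 1 heart left out (709 without TrbE10 heart 2, 159 without TrbE10 heart 3). For TrbE14 versus control the count of 148 became 240 under normexp and 326 by SAM, and 83 (without control heart 3) to 190 (without TrbE10 heart 2) with 1 heart left out. Between the mutants the count of 0 became 2 under 75th percentile scaling, 2 with no filter, 1 with the replicate number as a block, and 0 to 1 with 1 heart left out. Over the 3 groups the count of 266 became 172 with no filter and 127 (without control heart 4) to 421 (without TrbE10 heart 2). The cause was not tested. The share of called probes that were higher was 63.9% in TrbE10 and 77.7% in TrbE14, and became 52.7% and 71.9% under 75th percentile scaling and 63.5% and 66.2% under normexp.

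Hearts with the same replicate number deviated from their group means with correlations of -0.24 to 0.08 between control and mutants, and of 0.37, 0.31, -0.01 and 0.48 (numbers 1 to 4) between the mutants, where 3 of 4 hearts correlated best with their own number. Not every pair passed 0.1, so the numbers were not taken to pair the hearts. With the replicate number as a block 0 of the 9 genes were called, and the counts over all probes were 316 and 146 against control.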
